A study of Mus musculus with 8 samples.

Results

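The 10 genes described here encode the 5 subunits of the transcription factor NF-kB (Nfkb1, Nfkb2, Rel, Rela, Relb), 3 inhibitors of the IkB family (Nfkbia, Nfkbie, Nfkbiz), and 2 regulators that NF-kB itself induces (Tnfaip3, Traf1). They were taken by symbol from the 33696 genes listed in the matrices of 6 droplet single-cell libraries, and every one of the 10 was found under 1 gene identifier. Levels are raw UMIs (unique molecular identifiers, which count captured mRNA molecules) of a gene per 1000000 UMIs of a cell class in a library (CPM).

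The libraries came from livers carrying hepatocellular carcinoma, induced in 8- to 10-week-old male C57BL/6 mice by hydrodynamic tail vein injection of plasmids for Cas9 with a guide against Trp53, a c-Myc transposon and the SB13 transposase. Tissue was taken 4 to 5 weeks after injection and digested for 1 h at 37 °C. Control mice were Ncr1WT Nr4a1fl/fl, with both floxed Nr4a1 alleles and no Cre, and mice labelled knockout were Ncr1iCre Nr4a1fl/fl, so the floxed allele was shared by both groups and Cre was driven by the gene of the receptor NKp46, which natural killer (NK) cells and some innate lymphoid cells use. Each group had 3 mRNA libraries, of which control 3 pooled 3 hashtagged mice and knockout 3 pooled 2. The labels do not say which animals lie behind the other libraries, so p-values of the genotype comparison measure the spread between these libraries. The comparison between classes has the library as a covariate. Its p-values measure the spread left after differences shared by all classes of a library are removed.

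NF-kB subunits are held in the cytoplasm by IkB proteins until signals from cytokine, antigen or pattern-recognition receptors activate IkB kinases, which mark the inhibitor for destruction and free the dimer to enter the nucleus. In the canonical arm the p50 product of Nfkb1 pairs with RelA or c-Rel, and in the non-canonical arm the kinase NIK lets p100, the product of Nfkb2, be cut to p52, which pairs with RelB. NF-kB then induces its own inhibitors, among them IkBalpha (Nfkbia) and the ubiquitin-editing enzyme A20 (Tnfaip3), so that mRNA levels of these genes follow recent signalling as well as cell type. In liver the pathway is known for acute-phase, survival and inflammatory responses.

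Kappa B elements, the sites NF-kB binds, are known from promoters of several of these genes, so the bases upstream of the annotated starts are shown where a match was found. RefSeq windows of GRCm38.p6 were matched by symbol for 7 of the 10 genes, and the files' own build, GRCm39, was not used for coordinates. Within the 250 bases before a start, the 10-base kappa B consensus was present on either strand in 5 of those 7 genes, against 4.46% of 27025 genes with windows. A second motif, GGGNNTTTCC, was present in 4 of the 7, against 1.65% of genes. In these 7 genes its matches are all matches of the consensus too, though the motif itself also allows bases that the consensus does not. The 130 bases before the start follow, 5′ to 3′ on the gene's strand, with every base of a kappa B match on either strand in capitals. For Nfkb2 and Tnfaip3 the first of several annotated windows is shown.
Nfkbia (chr12:55492648-55492777, minus strand): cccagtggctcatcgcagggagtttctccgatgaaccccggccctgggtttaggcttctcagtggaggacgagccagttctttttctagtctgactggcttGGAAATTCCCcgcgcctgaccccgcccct
Tnfaip3 (chr10:19015411-19015540, minus strand): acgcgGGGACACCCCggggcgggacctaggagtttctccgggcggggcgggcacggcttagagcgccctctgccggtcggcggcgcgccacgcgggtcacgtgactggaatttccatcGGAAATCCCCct
Nfkbie (chr17:45555570-45555699, plus strand): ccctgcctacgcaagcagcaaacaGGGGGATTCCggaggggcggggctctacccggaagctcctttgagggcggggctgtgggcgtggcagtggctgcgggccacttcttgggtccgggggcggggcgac
Rel (chr11:23770970-23771099, minus strand): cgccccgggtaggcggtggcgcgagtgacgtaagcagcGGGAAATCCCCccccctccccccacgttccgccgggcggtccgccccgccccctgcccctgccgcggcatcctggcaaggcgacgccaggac
Nfkb2 (chr19:46304607-46304736, plus strand): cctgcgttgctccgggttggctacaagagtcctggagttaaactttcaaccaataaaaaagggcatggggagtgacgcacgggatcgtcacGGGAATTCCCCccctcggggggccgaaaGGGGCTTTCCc

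In Nfkbia the match lies 29 to 20 bases before the start, and in Tnfaip3 one lies 12 to 3 bases before it. Nfkb2 carries matches at both 39 and 11 bases before the start, while the overlapping matches of Rel begin 92 bases before it. Traf1 and Rela had no match in their windows, and Nfkb1, Relb and Nfkbiz are named only. A match describes letters in a window and not occupancy.

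After removal of barcodes with fewer than 500 UMIs or 300 genes, above 20% mitochondrial counts, or with a high doublet score, 20141 cells remained. They ranged from 134 in knockout 2 to 9146 in control 3, and knockout 2, where the median barcode held 75.1% mitochondrial counts, was the poorest library. Cells were assigned one by one to 17 classes from marker UMIs that include none of the 10 genes and leave out Ncr1, which carries Cre. Between 67.3% and 79.2% of the cells of a library received a class. The NK-like class, 1096 cells, had UMIs of all 10 of its markers in every library, markers by which its cells had been called. In NK-like cells Nr4a1 had 74.9, 33.4 and 47.7 CPM in the 3 control libraries and 137, 0 and 68.8 CPM in the 3 knockout libraries, so 3′ counts did not separate the groups at the targeted gene. Reads at the 3′ end do not test the excision itself. Classes with at least 10 cells in 2 libraries of each group numbered 11 and entered the comparison of genotypes. The comparison between classes took the 13 classes with at least 10 cells in at least 3 libraries. Orders of classes by level, such as the highest, lowest or next class, are among these 13.

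Across cell classes the 10 genes fell into distinct patterns rather than one common order. Relb, Traf1, Rel and Nfkb2 were highest in mature dendritic-cell (DC)-like cells, Nfkbia and Nfkbiz in neutrophil-like and basophil/mast-like cells, Tnfaip3 in basophil/mast-like and T-like cells, and all 10 were low in hepatocyte-like cells. The heat map of class means shows each gene against its own highest class, because CPM values of different genes are not compared here.

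**Figure D1:**
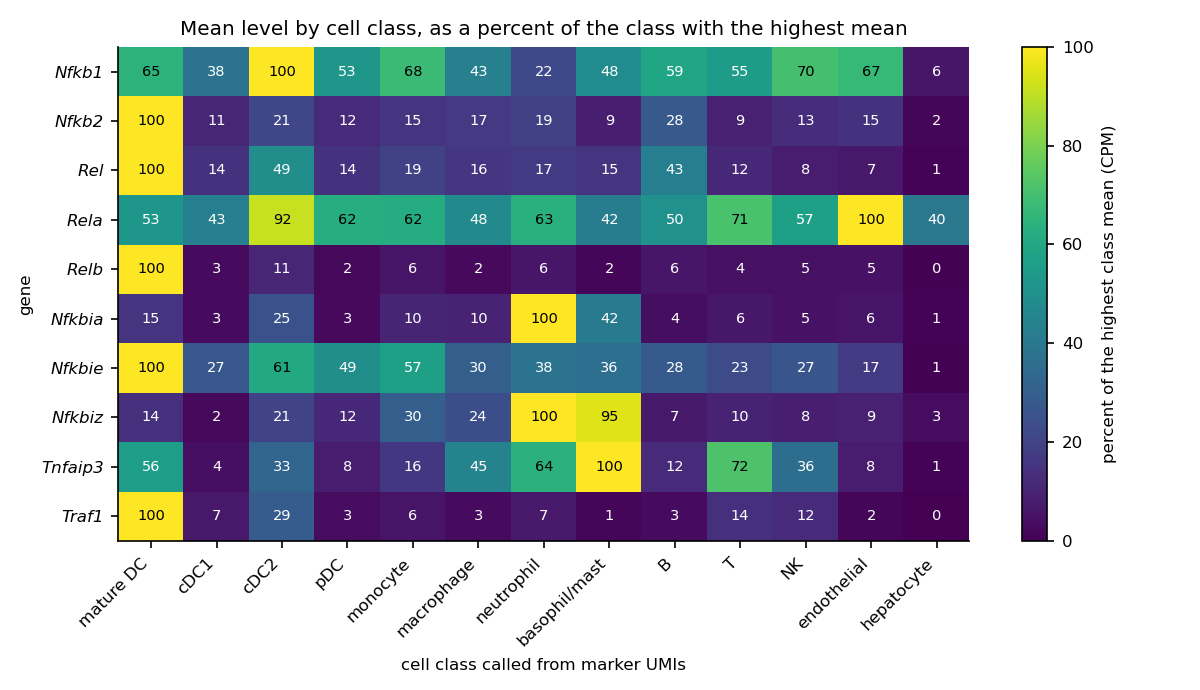
Mean level of each gene (rows) in 13 cell classes (columns) over libraries with at least 10 cells of the class, as a percent of the class with the highest mean CPM of that gene. Mature DC-like cells hold the highest mean of Nfkb2, Rel, Relb, Nfkbie and Traf1, and neutrophil-like cells that of Nfkbia and Nfkbiz.

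Among the subunits, Relb, which forms the non-canonical dimer with p52, was concentrated in 1 class. In mature DC-like cells it lay at 614 CPM in control 3, 1103 in knockout 1 and 932 in knockout 3, whereas the next class, type 2 conventional DC (cDC2)-like cells, reached 44.6 to 161 CPM. The ranges of these neighbours did not overlap. Relb in mature DC-like cells exceeded the mean of the other 12 classes by 5.01 on the log2 scale (SE 0.20, edgeR quasi-likelihood test, Benjamini-Hochberg adjusted p = 2.8e-31). Only 60 cells in these 3 libraries carried this value. All 9 markers of the class (Ccr7, Fscn1 and Ccl22 among them) had UMIs in each library. The cells were called by these same markers, so this is no separate check of their identity.

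Nfkb2, whose product p100 is both a precursor and an inhibitor, followed Relb. Its levels in mature DC-like cells were 142, 71.7 and 254 CPM in control 3, knockout 1 and knockout 3, and in B-like cells, the second class, 34.6 to 58.9 CPM. These ranges did not overlap, and the class contrast was 2.94 (SE 0.30, edgeR adjusted p = 1.75e-12). Unlike for Relb, the lowest mature DC-like library lay inside the neutrophil-like range, which reached 76.6 CPM. Nfkb2 is a sparse gene in most other classes, and it was 0 CPM in at least 1 library of T-like, basophil/mast-like, neutrophil-like and hepatocyte-like cells.

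Rel, which encodes c-Rel, the subunit best known from lymphocytes, was high in 3 classes. Mature DC-like cells held 614, 1641 and 750 CPM, cDC2-like cells 229 to 864 CPM, and B-like cells 375 to 488 CPM with a median of 428. The first pair of classes overlapped, as did cDC2-like and B-like cells, while the lowest B-like library lay above every monocyte-like library, the next class. Against the mean of the other classes Rel was higher by 2.96 (SE 0.20, edgeR adjusted p = 7.51e-20) in mature DC-like cells and by 1.65 (SE 0.16, adjusted p = 1.09e-13) in B-like cells. NK-like cells were low for Rel, at 58.9 to 100 CPM, with a log2 difference of -1.01 (SE 0.20, edgeR adjusted p = 3.24e-05).

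Nfkb1, the gene of p105 and p50, was spread broadly over immune classes. Its mean was highest in cDC2-like cells, at 402, 318, 351 and 341 CPM in the libraries control 1, control 3, knockout 1 and knockout 3. These all lay above the NK-like range of 205 to 289 CPM, the class with the next mean. The highest mature DC-like and endothelial-like libraries, at 359 and 343 CPM, lay inside the cDC2-like range. From NK-like down to monocyte-like and endothelial-like cells, neighbours differed by less than the larger SD of the pair. The cDC2-like contrast was 1.27 (SE 0.17, edgeR adjusted p = 6.24e-09), and Nfkb1 was lower than the mean of the other classes in neutrophil-like cells (log2 difference -0.64, SE 0.18, adjusted p = 0.00295).

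Rela, which encodes p65, the main activating subunit of the canonical arm, was the flattest of the subunits. Its class means ran from 19.3 ± 2.1 CPM (SD, n = 6) in hepatocyte-like cells to 48.9 ± 14.6 (SD, n = 5) in endothelial-like cells, where the libraries ranged from 28.6 to 66.7 CPM. The endothelial-like contrast of 0.40 (SE 0.15, edgeR adjusted p = 0.021) did not hold when control 1 (0.36, adjusted p = 0.0967), knockout 3 (0.47, adjusted p = 0.0568) or both libraries numbered 2 (0.25, adjusted p = 0.199) were left out, nor with control libraries only (0.51, adjusted p = 0.0862).

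**Figure D2:**
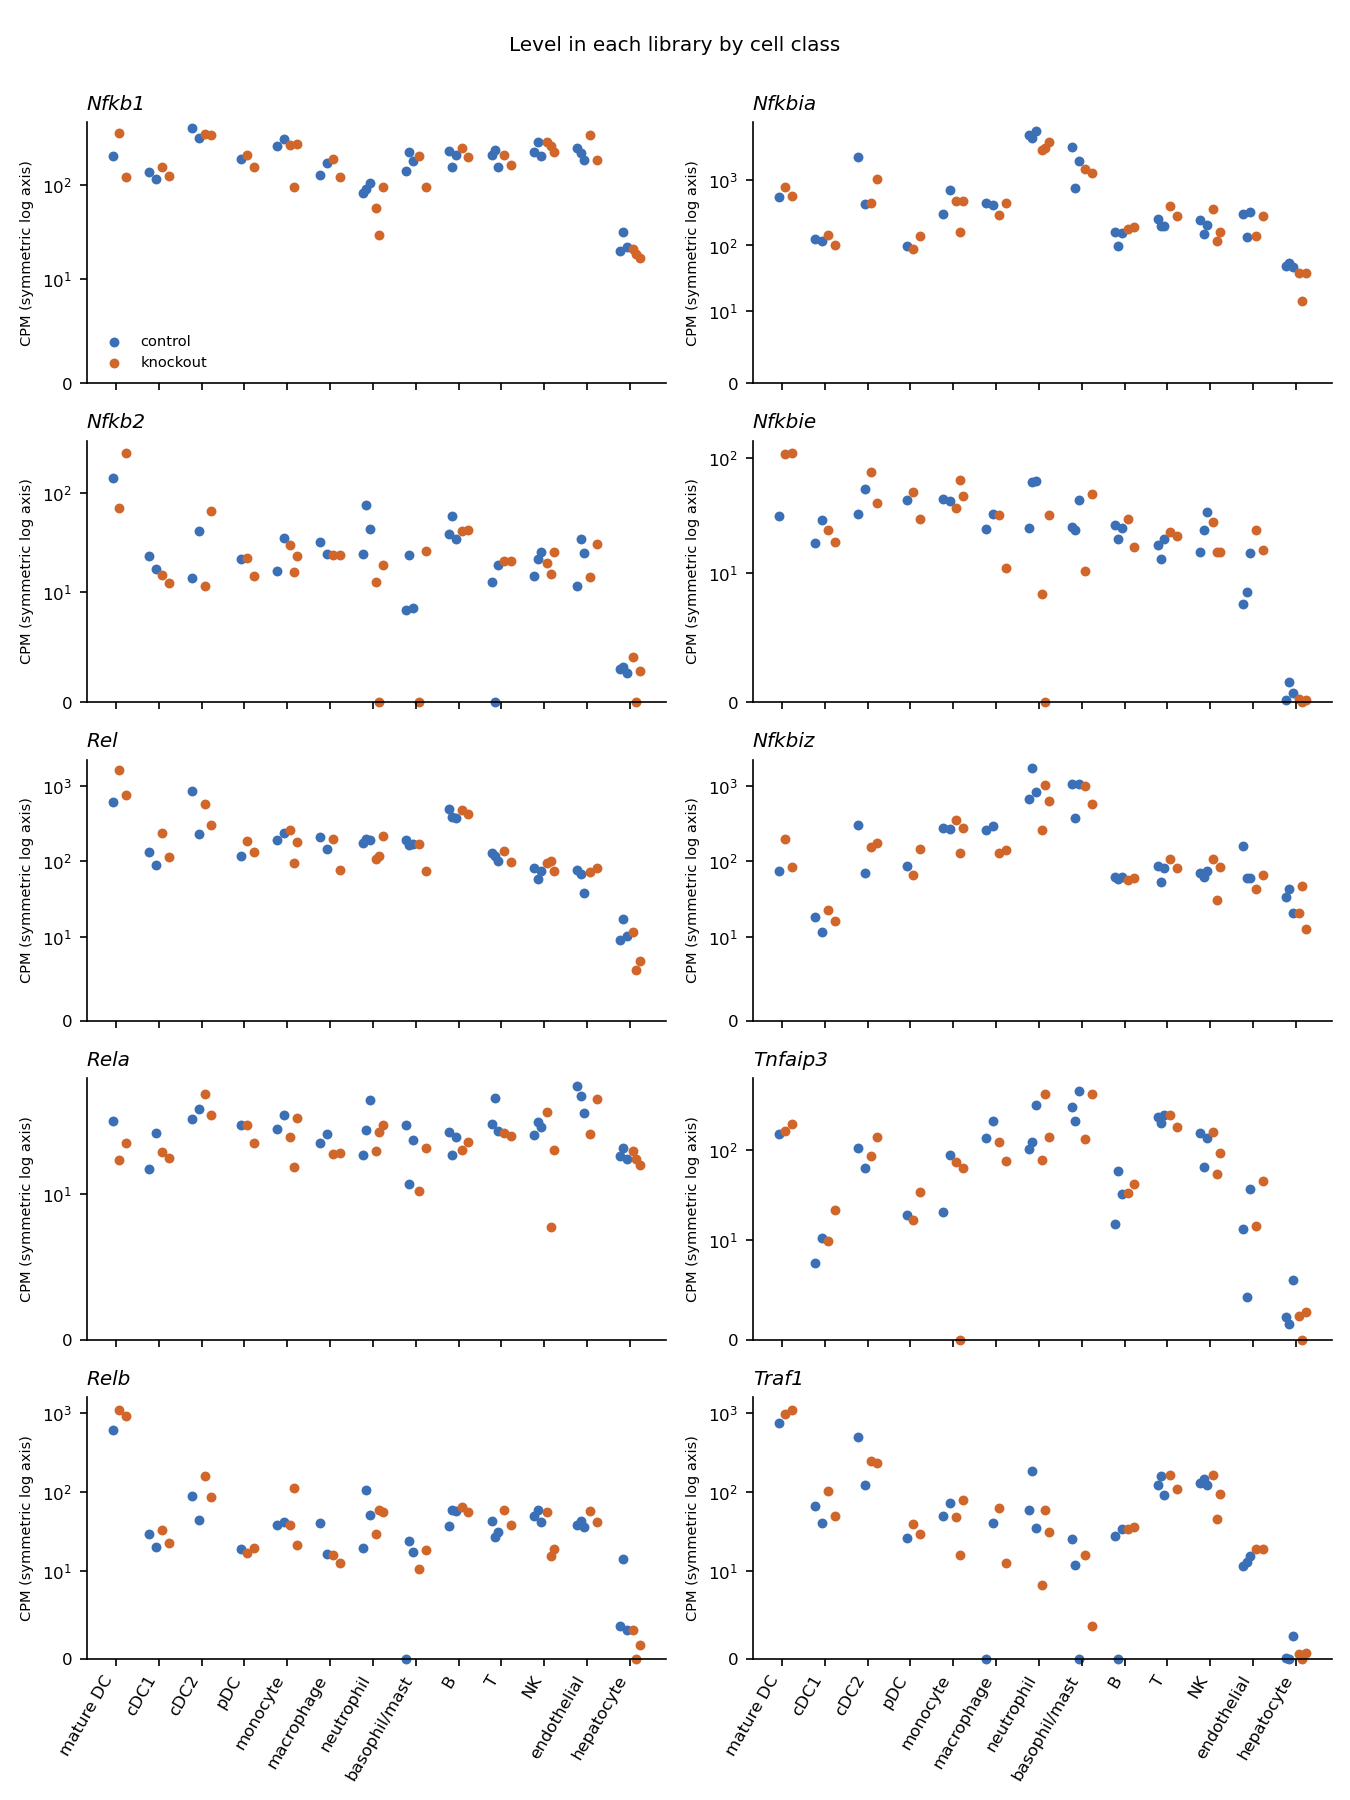
Level of each gene in each library (1 point per library, blue control, orange knockout) by cell class, in CPM on an axis that is linear below 10 and logarithmic above. Nfkbia in neutrophil-like cells lies between 2945 and 5767 CPM, overlapping basophil/mast-like cells, and Relb in mature DC-like cells lies between 614 and 1103 CPM, above every library of the other classes.

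Of the inhibitors, Nfkbia, the gene of IkBalpha that resets the canonical arm, had its highest mean in neutrophil-like cells. It lay at 4951, 4491 and 5767 CPM in the libraries of controls 1, 2 and 3, against 2945, 3067 and 3913 CPM for knockouts 1, 2 and 3. Basophil/mast-like cells followed with 767 to 3225 CPM and cDC2-like cells with 428 to 2301 CPM, so the highest basophil/mast-like library lay above the 2 lowest neutrophil-like ones. In all 3 classes the median cell of each library lay below its summed level. The median cell held 14.8 to 42.4 Nfkbia UMIs per 10000 in neutrophil-like, 1.09 to 6.37 in basophil/mast-like and 0 to 2.18 in cDC2-like cells of a library. The cell at the 90th percentile held 97.2 to 264 in neutrophil-like, 19.4 to 92.6 in basophil/mast-like and 11.9 to 68.8 in cDC2-like cells. The neutrophil-like contrast of 4.37 (SE 0.15, edgeR adjusted p = 4.95e-34) corresponds to a 20.7-fold excess over the mean of the other classes. A UMI of Nfkbia was found in 69.8% to 98.8% of neutrophil-like cells of a library, and in 57.1% to 91.7% once each cell was thinned to 1000 UMIs. No class is known to lack Nfkbia. In hepatocyte-like cells, the class lowest in it, the shares were 17.5% to 66.3% and, thinned, 3.57% to 8.98%. Median depth was 1834.5 to 3054 UMIs in neutrophil-like and 2645 to 91217 UMIs in hepatocyte-like cells of a library.

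Nfkbiz encodes IkBzeta, a nuclear member of the family that can also activate transcription. It was high in the same 2 classes, at 263 to 1732 CPM (median 744) in neutrophil-like and 378 to 1072 CPM (median 994) in basophil/mast-like cells, and these did not differ beyond their spread. Basophil/mast-like cells exceeded every monocyte-like library, the next of the 13 classes compared. Stellate-like cells, left out of that order with only 2 libraries of at least 10 cells, held 136 and 646 CPM. The higher of these lay inside the basophil/mast-like range. The contrasts were 3.24 (SE 0.20, edgeR adjusted p = 5.11e-20) in neutrophil-like and 2.97 (SE 0.20, adjusted p = 6.08e-18) in basophil/mast-like cells. Type 1 conventional DC (cDC1)-like cells were at the other end, at 11.8 to 22.8 CPM, with a difference of -2.88 (SE 0.38, edgeR adjusted p = 9.58e-09).

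Nfkbie, the gene of IkBepsilon, was sparse. It rested on 7, 12 and 9 UMIs in mature DC-like cells, or 31.2, 108 and 109 CPM in control 3, knockout 1 and knockout 3, and cDC2-like cells overlapped that range at 32.3 to 74.8 CPM. The mature DC-like contrast was 1.85 (SE 0.41, edgeR adjusted p = 0.000401). With control libraries alone, where 1 library holds the class, it was 0.48 (adjusted p = 0.889).

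The ubiquitin-editing enzyme A20, encoded by Tnfaip3, was highest in basophil/mast-like cells, at 302, 212 and 453 CPM in the 3 control libraries, with 132 and 419 CPM in knockout 1 and knockout 3. T-like cells followed with a narrow range of 181 to 243 CPM, and neutrophil-like cells with a wide one of 77.8 to 417 CPM. These 3 classes overlapped. Tnfaip3 was above the mean of the other classes by 2.60 (SE 0.24, edgeR adjusted p = 4.74e-13) in basophil/mast-like, by 2.10 (SE 0.21, adjusted p = 3.52e-12) in T-like and by 1.14 (SE 0.22, adjusted p = 3.46e-05) in NK-like cells.

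Traf1 encodes an adaptor of tumour necrosis factor receptors. It lay at 752, 978 and 1113 CPM in mature DC-like cells of control 3, knockout 1 and knockout 3, above the 125 to 494 CPM of cDC2-like cells, with no overlap. The contrast was 4.81 (SE 0.31, edgeR adjusted p = 4.87e-18). T-like and NK-like cells were also above the mean of the other classes, by 1.52 (SE 0.27, adjusted p = 7.42e-06) and 1.53 (SE 0.27, adjusted p = 7.93e-06), and did not differ from each other beyond their spread.

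Counted by class against all 11545 genes tested, the share of genes that are higher or lower is itself large, and the counts of the 10 read as follows. In mature DC-like cells 7 of 10 were higher and 0 lower, where 10.5% of all genes were higher and 6.31% lower. In cDC2-like cells 7 were higher, against 12.7%, and 0 lower, against 3.49%. Neutrophil-like cells had 6 higher against 23.5% and 1 lower (Nfkb1) against 21.7%, and without knockout 3 they had 4 calls in all. With control libraries alone, where 1 library holds the mature DC-like class, that class had 4 calls.

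Lymphoid classes were split by gene. B-like cells had 4 higher (Nfkb1, Nfkb2, Rel, Relb), against 29.2% of all genes, and 3 lower (Nfkbia, Nfkbiz, Tnfaip3), against 18%. NK-like cells had 3 higher (Nfkb1, Tnfaip3, Traf1), against 29.6%, and 3 lower (Nfkbia, Nfkbiz, Rel), against 11.3%. T-like cells had 2 higher (Tnfaip3, Traf1), against 29.3%, and 1 lower (Rel), against 11.9%. The shares of higher genes in NK-like and T-like cells were thus near the background. With both libraries numbered 2 left out, the T-like call of Rel, the NK-like call of Nfkbiz and the neutrophil-like call of Relb were not made. With classes taken from clusters, which hold no cDC2-like or mature DC-like class, NK-like cells had 5 higher and 0 lower, T-like cells 4 higher and 0 lower, cDC1-like cells 6 higher and 0 lower and macrophage-like cells 0 higher and 1 lower.

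Basophil/mast-like cells had 3 higher (Nfkbia, Nfkbiz, Tnfaip3) against 17.2% of all genes and 2 lower (Relb, Traf1) against 8.89%. Monocyte-like cells had 4 higher against 25.2% and 0 lower against 8.27%, and macrophage-like cells 2 higher against 19.9% and 1 lower against 6.88%. In macrophage-like cells there were 0 calls without control 3 and 1 without knockout 3. In cDC1-like cells 0 were higher against 24% and 3 lower against 12.2%, and in plasmacytoid DC-like cells 0 were higher against 13.6% and 2 lower against 6.53%, with 1 call in all without control 3. Endothelial-like cells had 1 higher (Rela) against 31.9% and 6 lower against 23.2%. In hepatocyte-like cells all 10 were lower, where 29.5% of genes were lower and 42.9% higher, and the differences ran from -0.46 for Rela to -5.99 for Nfkbie.

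The mean that every other class is set against includes these hepatocyte-like values. With them left out, an alternative chosen after seeing the data, mature DC-like cells kept 6 of the 7 calls and lost Nfkbia (0.73, edgeR adjusted p = 0.0649). T-like cells then had 5 lower calls (Nfkb2, Nfkbia, Nfkbie, Nfkbiz, Rel), and B-like cells had 1 higher call, Rel, and 6 lower. The NK-like call of Nfkb1 was lost (0.32, adjusted p = 0.0842), as were those of Rela in cDC2-like (adjusted p = 0.0578), Nfkbiz in macrophage-like (0.0925), Rel in monocyte-like (0.688) and Relb and Nfkbie in neutrophil-like cells (0.0777 and 0.0822). Neutrophil-like Nfkbia stayed at 4.33 (SE 0.16, adjusted p = 4.63e-31). Scaling to plain library totals in place of TMM removed the neutrophil-like calls of Rel, Relb and Nfkbie (0.27, 0.32 and 0.58 with adjusted p = 0.24, 0.34 and 0.0881) as well as that of Rel in T-like (-0.43, adjusted p = 0.0571) and of Rela in cDC2-like cells (0.67, adjusted p = 0.0545). Plain totals also made a call that TMM did not, Nfkb1 in endothelial-like cells (0.53, edgeR adjusted p = 0.000571, against 0.12 and 0.588 with TMM). They moved the median of all genes from -0.18 to -0.55 in neutrophil-like cells and from 0.08 to 0.49 in endothelial-like cells.

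Other genes of the pathway, in lists written with earlier results of these data known, were counted in the same contrasts. Of 28 tested NF-kB target genes, 21 were higher and 0 lower in macrophage-like cells, where 19.9% of all genes were higher and 6.88% lower. Neutrophil-like cells had 17 higher and 3 lower (all genes 23.5% and 21.7%), monocyte-like cells 16 and 1 (25.2% and 8.27%), mature DC-like cells 10 and 0 (10.5% and 6.31%) and hepatocyte-like cells 5 and 16 (42.9% and 29.5%). Of 21 tested kinases and adaptors, 12 were higher and 2 lower in B-like cells (all genes 29.2% and 18%), and, with the shares of all genes as above, 11 higher and 1 lower in monocyte-like cells, 7 higher and 0 lower in mature DC-like cells and 1 higher and 16 lower in hepatocyte-like cells. Of 15 other inhibitors, 11 were higher and 2 lower in neutrophil-like cells and 5 higher and 0 lower in mature DC-like cells. Of 21 tested receptors and ligands, 12 were higher and 0 lower in neutrophil-like and in macrophage-like cells. The list medians were 2.08 for targets in neutrophil-like cells, where all genes had -0.18, and 0.81 in mature DC-like cells, where all genes had -0.33.

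Immediate early and heat shock genes, which tissue digestion is known to induce, were counted in the same way. Of 12 such genes 10 were higher and 0 lower in neutrophil-like cells (all genes 23.5% and 21.7%) and in basophil/mast-like cells (17.2% and 8.89%), 9 higher and 0 lower in cDC2-like cells (12.7% and 3.49%) and in monocyte-like cells (25.2% and 8.27%), and 0 higher and 1 lower in mature DC-like cells (10.5% and 6.31%). Macrophage-like cells had 6 higher and 1 lower (19.9% and 6.88%). Neutrophil-like, basophil/mast-like and cDC2-like cells had the highest mean Nfkbia. In cDC2-like cells Relb (1.45, edgeR adjusted p = 4.49e-05) and Traf1 (2.88, adjusted p = 1.15e-09) were higher too. In mature DC-like cells Nfkbia was higher (0.99, edgeR adjusted p = 0.00579), a call lost with hepatocyte-like cells left out (0.73, adjusted p = 0.0649). The summed level of the 12 in neutrophil-like cells was 8625 to 31348 CPM. In NK-like cells it was 1205 to 3031 CPM. Their part in the class differences of Nfkbia and Nfkbiz was not tested.

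The genes most alike to 5 of the 10 were ranked by Pearson's r of log2(CPM + 1) over 61 sums of a class in a library, among 6891 genes with a mean of at least 20 CPM. These are descriptions, since sums of 1 library share its depth and handling. Nfkbia was most like Mxd1 (r = 0.886), Zfp36 (0.878), which encodes an mRNA decay factor and is itself an immediate early gene, and Nfkbiz (0.87). Nfkbiz was most like Neat1 (0.898), Osm (0.878) and Nfkbia. Relb was most like Birc2 (0.804), Map3k14 (0.756), the gene of the kinase NIK, and Wnk1 (0.729). Rel was most like Tank (0.849), Rassf2 (0.84) and Btg1 (0.82), and Traf1 was most like Gpr132 (0.804), Pik3r5 (0.796) and Psmb9 (0.776). Between members, Nfkbia and Tnfaip3 had r = 0.733, Relb and Rel 0.717, and Nfkbiz and Relb 0.139.

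The comparison of genotypes asks whether deletion in Ncr1-expressing cells goes with another level of the pathway in NK-like cells. None of the 10 genes passed the test there. All 10 were tested among 7455 genes, of which edgeR called 0 (0%) at adjusted p below 0.05, with 150 genes (2.01%) and 0 of the 10 at unadjusted p below 0.05. DESeq2 also called 0 genes, with 42 at unadjusted p below 0.05, none of them among the 10. Groups did not overlap for 531 of the 7455 genes (7.12%) and for 0 of the 10.

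Relb had the largest fitted difference in NK-like cells. It lay at 49.2, 58.9 and 42.1 CPM in the libraries of controls 1, 2 and 3, against 56.1, 15.4 and 19.1 CPM for knockouts 1, 2 and 3. Knockout 1 sat among the controls and the other 2 below them. Knockout 2 held only 29 NK-like cells, so its low value rests on few UMIs. The log2 fold change was -0.49 (SE 0.35, edgeR adjusted p = 1), and it was -0.09 without knockout 3 and -1.40 without knockout 1. Of the other subunits, Rel lay at 80.8, 58.9 and 75.7 CPM in the control libraries, against 95.4, 100 and 73.9 CPM in the knockout libraries, with a difference of 0.24 (SE 0.24, edgeR adjusted p = 1).

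Among inhibitors and regulators the control libraries of Nfkbia and Nfkbiz lay inside the range of the knockout libraries. Nfkbia lay at 247, 149 and 207 CPM in the libraries of controls 1, 2 and 3, against 365, 116 and 162 CPM for knockouts 1, 2 and 3, so knockout libraries held both the highest and the lowest value. Nfkbiz lay at 69.7, 62.8 and 74.6 CPM in controls against 108, 30.9 and 84.1 CPM in knockouts. Traf1 had 132, 145 and 123 CPM in the control libraries, against 164, 46.3 and 95.5 CPM in the knockout libraries. The knockout 2 values of Nfkbiz and Traf1 also rest on few UMIs.

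The fitted differences were 0.15 (SE 0.36) for Nfkbia, 0.27 (SE 0.28) for Nfkbiz, -0.33 (SE 0.39) for Nfkbie, -0.14 (SE 0.37) for Tnfaip3 and -0.22 (SE 0.28) for Traf1. For Nfkb1, Nfkb2 and Rela they were 0.12 (SE 0.21), 0.02 (SE 0.35) and -0.14 (SE 0.34). Over the 6 libraries Nfkb1 ranged from 205 to 289 CPM, Tnfaip3 from 54.1 to 158 CPM, Nfkbie from 15.3 to 33.9 CPM, Rela from 7.72 to 42.1 CPM and Nfkb2 from 14.7 to 25.8 CPM, with overlap between the groups in each. The median difference of the 10 was -0.06, against -0.003 over all genes. With the replicate number as a block, edgeR called 7 of the 7455 genes and none of the 10, whose lowest adjusted p was then 0.999.

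For most of the 10 genes the mice pooled in knockout 3, told apart by hashtags, stood on opposite sides of the control mice in NK-like cells. In the 55 NK-like cells of its mouse 1, 9 of the 10 genes were below all 3 mice of control 3 and 0 above. In the 33 cells of its mouse 2, 7 of the 10 were above all 3 and 2 below. The share of all genes lying outside the control mice was not counted, so these counts do not set the 10 apart from other genes. Nfkbia lay at 67.0 CPM in mouse 1 and 465 in mouse 2, against 239, 273 and 191 CPM in the mice of control 3.

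Tnfaip3 was 48.2 CPM in mouse 1 and 217 in mouse 2, and Nfkbiz 39.8 and 248 CPM. Relb lay below the control mice in both, at 14.7 and 31.0 CPM against 43.5, 53.8 and 44.5 CPM. So did Nfkbie, at 10.5 and 38.8 CPM against 45.9, 40.4 and 39.7 CPM. The NK-like cells of mouse 2 held 128946 UMIs in all, so its Relb and Nfkbie values rest on few UMIs. Its place below the control mice is therefore not settled for these genes, least of all for Nfkbie. All of these are single mice and carry no test. Mouse 2 also had the higher summed immediate early level, 4304 against 2019 CPM in mouse 1 and 2367 to 3259 CPM in the control mice, the higher Nr4a1 (217 against 33.5 CPM), the lower sum of the cell-cycle genes Mki67 and Top2a (101 against 647 CPM, with 195 to 783 CPM in the control mice) and fewer UMIs per cell (3907 against 8680). The part of these in the difference between these mice was not tested.

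**Figure D3:**
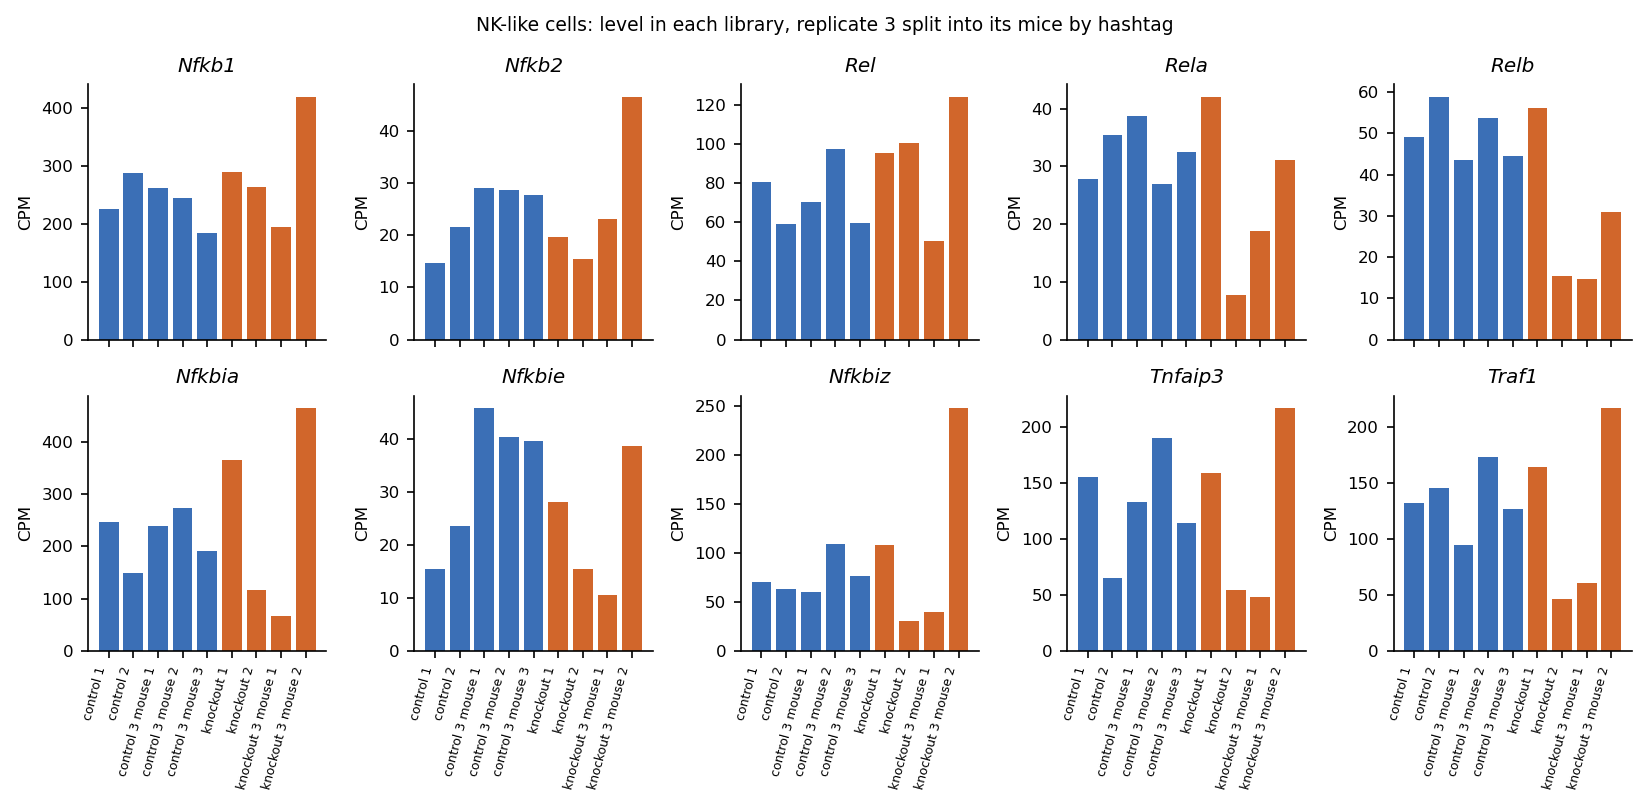
NK-like cells: level of each gene in CPM (bars, blue control, orange knockout) in libraries 1 and 2 and in each hashtagged mouse of libraries 3. Knockout 3 mouse 2 has the highest bar for Nfkb1, Nfkb2, Rel, Nfkbia, Nfkbiz, Tnfaip3 and Traf1, and knockout 3 mouse 1 the lowest or second lowest for Nfkbia, Nfkbie, Nfkbiz, Tnfaip3 and Traf1.

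Whether the genotype difference in NK-like cells differs from that in other cells was tested against the mean of neutrophil-like and hepatocyte-like cells, the classes present in all 6 libraries. Of 9424 genes edgeR called 0 (0%) and none of the 10, with 346 genes (3.67%) and 0 of the 10 at unadjusted p below 0.05. The differences ran from -0.11 (SE 0.60) for Relb to 0.90 (SE 0.94) for Traf1, and for Nfkbia the value was 0.69 (SE 0.82). All genes had a median of -0.23 in this contrast, and the 10 had 0.57.

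In the other pathway lists no gene passed in NK-like cells. The smallest p in each list there belonged to Ripk2 among 20 tested kinases and adaptors (0.77, SE 0.31, unadjusted p = 0.0245, edgeR adjusted p = 1), Ltb among 6 receptors and ligands (-0.63, SE 0.30), Zc3h12a among 12 other inhibitors (0.56, SE 0.34), Gadd45b among 13 targets (0.59, SE 0.40) and Atf3 among 12 immediate early genes (0.92, SE 0.50). In the other classes 1 listed gene passed, the heat shock gene Hspa1a in basophil/mast-like cells (1.78, SE 0.27, edgeR adjusted p = 0.00866). That call was lost without control 3 (1.67, adjusted p = 0.202), with mice as units (1.79, adjusted p = 0.454) and with classes from clusters (1.19, adjusted p = 0.151).

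Over the 11 classes compared between genotypes, 93 tests were possible for the 10 genes, and edgeR called 0 of them at adjusted p below 0.05. The share of all genes called was 0.0611% in B-like, 0.325% in basophil/mast-like and 0.0128% in endothelial-like cells, and 0% in T-like, cDC1-like, cDC2-like, hepatocyte-like, macrophage-like, monocyte-like and neutrophil-like cells. At unadjusted p below 0.05 there were 3 of the 93, namely Nfkbia in T-like cells (where 2.19% of all genes passed that level), Rel in cDC1-like cells (3.09%) and Nfkbiz in macrophage-like cells (1.22%). DESeq2 called 0 of them, with 1 at unadjusted p below 0.05. With the replicate number as a block edgeR called 1, Nfkbia in basophil/mast-like cells, and over all genes it called 52 in place of 6 in B-like, 50 in place of 1 in endothelial-like, 27 in neutrophil-like, 13 in macrophage-like, 10 in cDC2-like, 5 in monocyte-like, 4 in T-like, 1 in cDC1-like and 0 in hepatocyte-like cells.

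**Figure D4:**
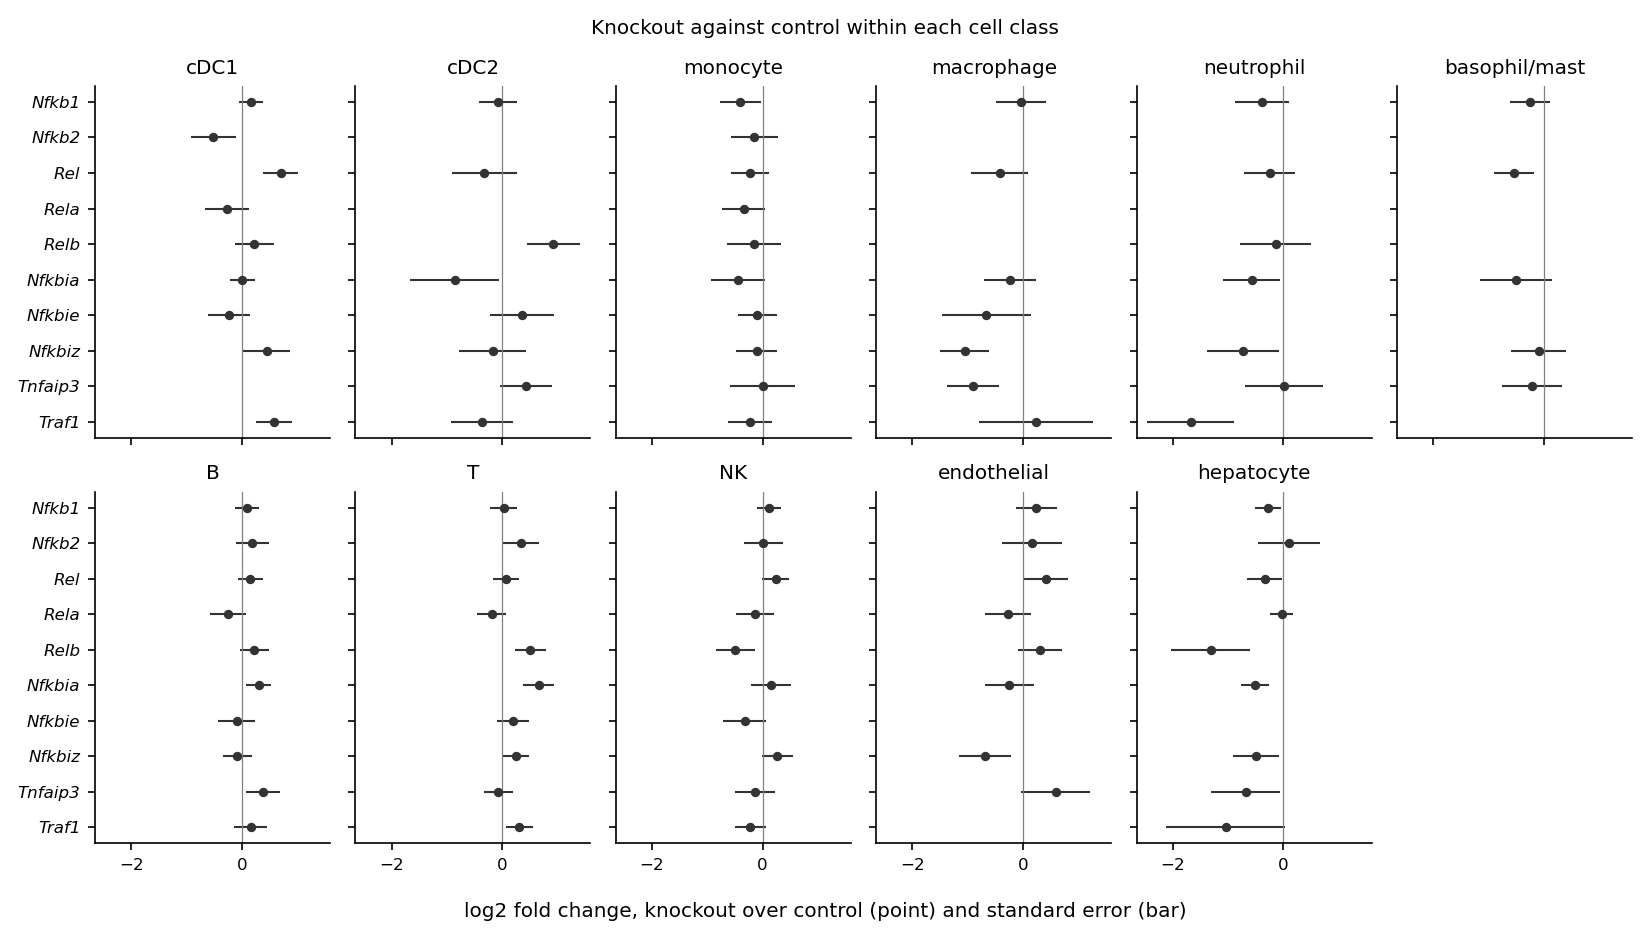
Fitted log2 fold change, knockout over control, of each gene in 11 cell classes (point, edgeR) with its standard error (bar). Genes that did not pass the filter on low counts in a class have no point, and none of the 93 points passed the adjusted threshold.

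In neutrophil-like cells the groups lay apart for Nfkbia, whose 3 control libraries (4951, 4491 and 5767 CPM) were all above its 3 knockout libraries (2945, 3067 and 3913 CPM). They also lay apart for Nfkb2, which did not pass the filter on low counts there. For Nfkbia the log2 fold change was -0.57 (SE 0.52, edgeR adjusted p = 1). Of 2832 genes tested in this class, knockout was lower without overlap for 119 (4.20%), and of the 7 members tested this was 1. With mice as units the difference was -0.28, and the 2 mice of knockout 3 lay at 5563 and 3587 CPM.

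Neutrophil-like cells also differed in maturity markers between libraries. A UMI of Camp, Ngp or Ltf, granule genes of neutrophil precursors, was found in 34.9%, 7.14% and 1.23% of them in the libraries of controls 1, 2 and 3, against 44.4%, 6.25% and 18.0% in knockouts 1, 2 and 3. Cells with such a UMI weigh by their UMIs in the summed level. They held 127647, 8062 and 3817 UMIs in the control libraries and 408500, 1918 and 275940 in the knockout libraries. The cells without one held 75748, 57174 and 249002 UMIs, and 66883, 31668 and 356601, in the same order. In cells without such a UMI, Nfkbia was 10852, 5002 and 5755 CPM in the control libraries, against 13038, 2842 and 5931 CPM in the knockout libraries, so the groups overlapped. In cells with one it was 1449 CPM in control 1 and 1293 and 1305 CPM in knockouts 1 and 3, the 3 libraries with more than 2 such cells. The summed immediate early genes were 18550, 31348 and 26003 CPM in the control libraries, against 8625, 17537 and 17166 CPM in the knockout libraries, apart in the same direction. Their part in the Nfkbia difference was not tested.

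**Figure D5:**
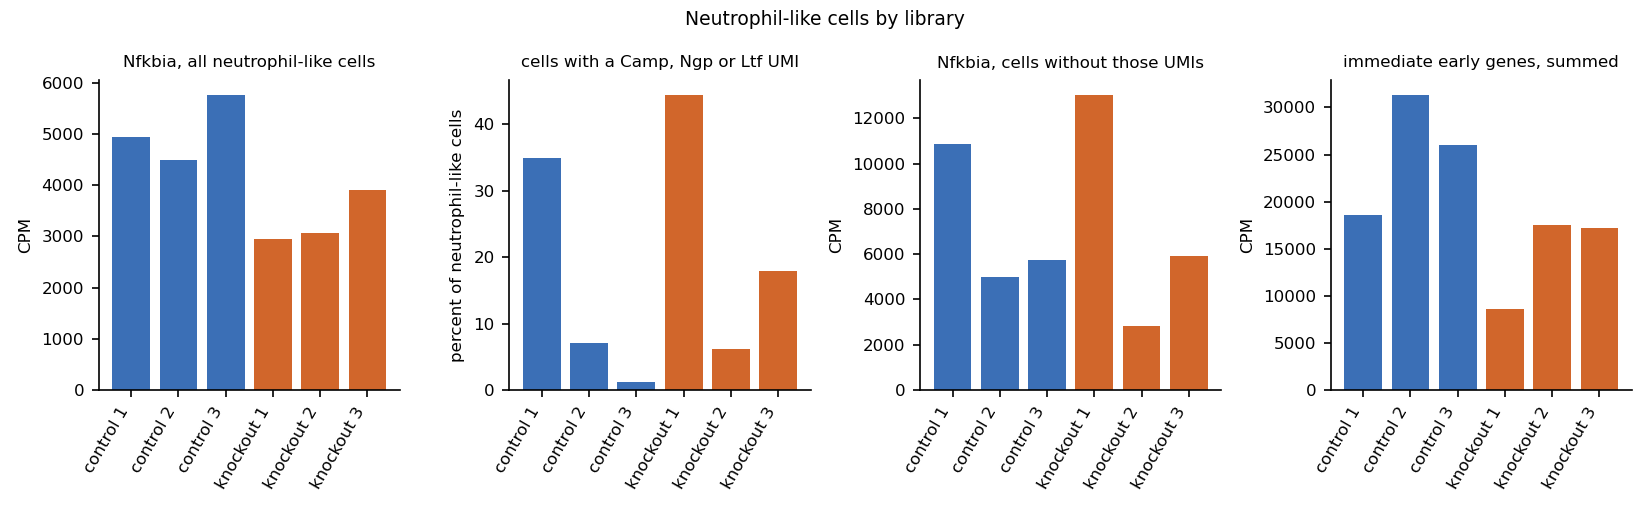
Neutrophil-like cells in each library (blue control, orange knockout). From left to right the bars give Nfkbia in all such cells, the percent of them with a Camp, Ngp or Ltf UMI, Nfkbia in the cells without those UMIs, and the summed level of 12 immediate early and heat shock genes. Nfkbia separates the groups over all cells, at 4491 CPM or more against 3913 or less, but not in the cells without those UMIs.

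In T-like cells Nfkbia lay the other way, at 257, 200 and 202 CPM in the libraries of controls 1, 2 and 3, against 397 and 281 CPM in knockouts 1 and 3, every knockout library above every control. The difference was 0.66 (SE 0.28, edgeR unadjusted p = 0.0267, adjusted p = 1). By mouse, control 3 had 170, 206 and 224 CPM and knockout 3 had 250 and 332 CPM, so its mice were also apart. Groups did not overlap for 16.1% of all genes in this class, with 2 knockout libraries, and for 4 of the 10.

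Part of the T-like class had a UMI of Foxp3, the regulatory T-cell factor. Nfkbia in those cells was 543 CPM in control 3 (45 cells) and 1121 CPM in knockout 1 (14 cells), and in the remaining T-like cells it was 256, 73.3 and 193.3 CPM in the 3 control libraries against 362 CPM in knockout 1 and 278 in knockout 3. In the remaining cells both knockout libraries lay above all control libraries, where the control 2 value rests on 5 UMIs. A cell without a Foxp3 UMI can still be a regulatory T cell. The part of such cells in the difference was not tested. B-like cells had 163, 98.1 and 156 CPM in the control libraries, with 178 CPM in knockout 1 and 194 in knockout 3. This was a difference of 0.30 (SE 0.22, edgeR adjusted p = 1). Groups did not overlap for 14.2% of all genes and 1 of the 10.

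Hepatocyte-like cells had Nfkbia at 47.9, 54.0 and 47.1 CPM in the control libraries, against 38.1, 14.3 and 37.4 CPM in the knockout libraries, without overlap, as for 4.55% of all genes and 1 of 9 members. The fold change was -0.51 (SE 0.26, edgeR adjusted p = 1). With mice as units it was 0.10, and mouse 1 of knockout 3 held 147 CPM in 52 cells. The difference of the Nfkbia effect between T-like and neutrophil-like cells was 1.22 (SE 0.64, edgeR adjusted p = 1, 1 of 7 pairs of a gene and 2 classes lying apart in opposite directions), and none of the 7 pairs passed. Over all genes edgeR called 0.257% in the fit of B-like against neutrophil-like cells, 0.0131% in that of T-like against neutrophil-like cells and 0% in the other 4 fits.

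Macrophage-like cells had Nfkbiz at 258 CPM in control 1 and 293 in control 3, with 128 in knockout 1 and 143 in knockout 3, and both controls lay above both knockouts. The same held for Tnfaip3, so that 2 of the 7 members tested did not overlap. Groups did not overlap for 24.9% of all genes in this class, where only 2 libraries stood on each side. The Nfkbiz difference was -1.05 (SE 0.44, edgeR unadjusted p = 0.0353, adjusted p = 1). It was 0.009 when macrophage-like cells were taken from clusters. Tnfaip3 in this class had a difference of -0.90 (SE 0.47, edgeR adjusted p = 1).

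In cDC1-like cells Rel lay at 132 CPM in control 1 and 90.2 in control 3, against 241 in knockout 1 and 114 in knockout 3, with overlap, and the difference was 0.70 (SE 0.31, edgeR adjusted p = 0.999). Without knockout 3, which leaves knockout 1 alone and assumes that it varies like the controls, it was 1.10 (adjusted p = 0.0126). Traf1 in the same cells had 0.58 (SE 0.33, adjusted p = 0.999). Relb in cDC2-like cells had 0.92 (SE 0.48, edgeR adjusted p = 0.999), with 87.8 CPM in control 1, 44.6 in control 3, 161 in knockout 1 and 87.0 in knockout 3. Groups did not overlap for 28% of all genes in cDC1-like cells and for 1 of 9 members, Nfkb2.

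In basophil/mast-like cells Nfkbia lay at 3225, 767 and 1981 CPM in the control libraries, with 1480 CPM in knockout 1 and 1293 in knockout 3, inside the control range. Its difference was -0.50 (SE 0.65, edgeR adjusted p = 0.821), and with the replicate number as a block it was -0.85 (adjusted p = 0.0364), where all-gene calls numbered 83 in place of 11. Without control 1 it was 0.02. Nfkbia in monocyte-like cells had a difference of -0.45 (SE 0.49), which was 0.22 without control 3, Nfkbiz in endothelial-like cells -0.69 (SE 0.47), Traf1 in neutrophil-like cells -1.67 (SE 0.79) and Relb in hepatocyte-like cells -1.31 (SE 0.72), all with edgeR adjusted p = 1. Of the other differences, Nfkbia in cDC2-like cells had -0.86 (SE 0.80), which was 0.79 without control 1, Relb in T-like cells 0.50 (SE 0.28), Tnfaip3 in B-like cells 0.39 (SE 0.30), Rel in endothelial-like cells 0.42 (SE 0.40), Rel in basophil/mast-like cells -0.54 (SE 0.37), Nfkb1 in monocyte-like cells -0.41 (SE 0.37) and Nfkbiz in neutrophil-like cells -0.73 (SE 0.65). None of these passed edgeR's adjusted threshold.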

How the data were processed

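The authors' deposited matrices hold raw UMI counts per gene and barcode, with headers that name Cell Ranger 7.0.1 (libraries 1 and 2) or 9.0.1 (libraries 3). Per the submitters' processing notes the build was GRCm39 and the version 9.0.1 throughout. Whole-library totals were 4126740 to 122609032 UMIs. Hashtag counts, which sit in the matrices of libraries 3, served only to assign mice.

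Doublets were removed by Scrublet score (in scanpy 1.11.5) at 0.8% per 1000 cells, since its automatic threshold called 1 to 4 per library, along with 162 and 22 hashtag multiplets in control 3 and knockout 3. Libraries shared at most 11 barcodes. No test for empty droplets was run. A cell received the class with the highest marker score if it had UMIs of at least 3 markers, a score of at least 0.25 and 1.5 times the runner-up. The score is the mean log-normalised expression of a class's markers, divided by its 90th percentile among cells with at least 3 of them. The thresholds of a stricter alternative were 0.4 and 2. Classes from Leiden clusters, built without the 10 genes, were another; no cluster was named cDC2 or mature DC, so those classes rest on single-cell calls.

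Counts were summed per class and library with at least 10 cells and tested with edgeR 4.0.16 (quasi-likelihood, TMM, filterByExpr, two-sided, Benjamini-Hochberg over all genes of a comparison, threshold 0.05), after a test on simulated data. The genotype filter kept 5 to 10 of the members per class. The class contrast used one fit over all classes with the library as a covariate. The standard error is the absolute log2 fold change over the square root of F. DESeq2 1.42.0, other scalings and filters, and left-out libraries were alternatives. Shares carry counting error only.

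Same-numbered libraries deviated together in NK-like (correlations 0.287, 0.251 and 0.271) and hepatocyte-like cells (0.351, 0.12 and 0.304). In neutrophil-like cells this held for 2 of 3 pairs (0.627, 0.357 and 0.066). The main genotype fit had no block and so did not use this pairing. A fit with the number as a block is an alternative, given beside results that it changes. The number also goes with the Cell Ranger version.

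The members and lists were chosen with earlier results of these data known. Named genes were all 10 members in NK-like cells and in their highest class, the 2 with the smallest p in each other class, those passing, and for each list the smallest p in NK-like cells. The counts without overlap and the mice were chosen after their values were seen.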

Additional observations from a re-analysis of the deposited data

How the results depend on the processing

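The counts of members called were within 1.5 times the reported count in 303 of 317 comparisons with an alternative setting. A count of 0 in both settings was taken as within, and the genes called and their directions were not compared. In B-like cells, 4 higher and 3 lower calls became 1 higher and 6 lower with hepatocyte-like cells left out. In NK-like cells, 3 higher and 3 lower became 5 higher and 0 lower with classes from clusters. The fold changes kept direction and side of the threshold in 672 of 728. With the replicate number as a block, where same-numbered libraries are treated as pairs, 1 member was called, in basophil/mast-like cells, and no other member call changed. In the genotype comparison, leaving out 1 library gave 0 to 1 called members in cDC1-like cells.

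In the class comparison, T-like cells had 1 call with control libraries only and 7 with hepatocyte-like cells left out, a setting chosen after seeing the data. Control libraries alone gave 4 in endothelial-like and 4 in mature DC-like cells. Classes from clusters gave 6 in cDC1-like, 1 in macrophage-like and 8 in monocyte-like cells. Plain totals gave 4 in neutrophil-like cells. Leaving out 1 library gave 0 to 3 in macrophage-like, 4 to 8 in neutrophil-like and 1 to 3 in plasmacytoid DC-like cells. The causes were not tested.

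In NK-like cells the genotype difference changed sign with clusters for Nfkb1 (-0.058) and Nfkb2 (-0.033), for Nfkb2 with mice as units (-0.01) and no filter (-0.019), with both libraries numbered 2 left out for Rela (0.033) and Traf1 (0.005), and with stricter calls for Tnfaip3 (0.002). Leaving out 1 library gave -0.008 to 0.22 for Nfkb1, -0.21 to 0.36 for Nfkb2, -0.74 to 0.095 for Rela, -0.50 to 0.36 for Nfkbia, -0.77 to 0.19 for Nfkbie, -0.024 to 0.45 for Nfkbiz, -0.60 to 0.061 for Tnfaip3 and -0.02 to 0.80 for Gadd45b.

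The difference between NK-like and other cells changed sign with clusters for Nfkb1 (-0.34), Rel (-0.10) and Traf1 (-0.36), and with neutrophil-like cells left out for Nfkb2 (-0.12), Relb (0.40) and Tnfaip3 (0.22). It did so with plain totals for Rela (0.054), Relb (0.05) and Tnfaip3 (0.098), and with both libraries numbered 2 left out for Rela (0.085) and Tnfaip3 (0.25). Leaving out 1 library gave -0.84 to 0.43 for Rela, -0.84 to 0.63 for Relb, -0.01 to 1.21 for Nfkbiz, -0.72 to 0.59 for Tnfaip3 and -0.54 to 1.72 for Traf1.

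Elsewhere Nfkbia changed sign in B-like cells with clusters (-0.014) and in hepatocyte-like cells with mice as units (0.10), and Nfkbiz in macrophage-like cells with clusters (0.009). Leaving out 1 library gave Nfkbia -0.89 to 0.017 in basophil/mast-like, -1.72 to 0.79 in cDC2-like and -0.96 to 0.22 in monocyte-like cells. Over all genes, the genotype comparison called 0 to 56 genes in B-like, 0 to 73 in T-like, 1 to 83 in basophil/mast-like, 0 to 50 in cDC1-like, 0 to 18 in cDC2-like, 0 to 92 in endothelial-like, 0 to 22 in macrophage-like, 0 to 21 in monocyte-like, 0 to 27 in neutrophil-like, 0 to 7 in NK-like and 0 in hepatocyte-like cells across settings. Plain totals moved the share of higher calls from 57.8% to 76.6% in endothelial-like, 52.0% to 34.3% in neutrophil-like, 66.3% to 52.0% in cDC1-like and 74.3% to 85.1% in macrophage-like cells.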
